A study of Mus musculus with 2 samples.

Results

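Gfi1, Gfi1b, Zeb1 and Zeb2 encode zinc finger repressors and form a pair of paralogue pairs. The chromatin accessibility of these 4 genes, of 21938 protein-coding genes in all, was read in mouse thymus by DNase-seq, an assay that maps the cuts of the nuclease DNase I in chromatin. The genes were chosen by name. Their windows were the annotated gene bodies with 100 kb added on each side, on mm10 with GENCODE M21 gene models, and a peak or footprint belonged to a window if its midpoint lay inside. Peaks are regions cut more than their surroundings, and footprints are short protected stretches that bound proteins can leave. The 4 windows held 137 of 132737 peaks and 438 of 375374 footprints in replicate 1, and 64 of 69798 peaks and 188 of 210014 footprints in replicate 2.

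The samples formed 1 group: whole thymus of female B6CASTF1/J mice at 10 days of age, hybrids that carry a C57BL/6J and a CAST/EiJ chromosome set, untreated as far as the labels say. The 2 libraries came from separately numbered females that share a donor identifier in the labels, and each is 1 biological replicate. There was no second tissue, genotype or treatment. An exact paired permutation test over 2 libraries cannot give a two-sided p below 0.5, so that no test was run and differences between paralogues are given in each replicate, with the mean and SD, and beside all coding genes. Since whole tissue was used, few cells with an open site and many cells with a weakly open site could not be told apart.

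GFI1 and GFI1B share a nearly identical DNA-binding domain and a SNAG domain, through which they recruit the histone demethylase KDM1A with CoREST proteins and histone deacetylases to AATC sites. GFI1 is known for its part in T-cell and neutrophil development and in blood stem cells, and GFI1B for its part in erythroid cells and megakaryocytes. ZEB1 and ZEB2 are large proteins with a zinc finger cluster near each end, which bind E-boxes such as CACCTG and recruit CtBP corepressors. Mice that lack functional ZEB1 have a small thymus with few T-cell precursors, while ZEB2 is known in monocytes, dendritic cells, natural killer cells, effector T cells and the neural crest.

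The sequences of accessible sites of Gfi1, Gfi1b and Zeb2 that the comparison turned on are shown first, so that the values can be read against them. They are mm10 plus-strand sequence read from the RefSeq copy of GRCm38.p6, and capitals mark the footprints called in replicate 1. Gfi1, Gfi1b and Zeb2 are transcribed from the minus strand. The Gfi1 promoter sequence is the intronic part, free of untranslated sequence, of the highest peak near a Gfi1 start (chr5:107725421-107725560). The Gfi1 intron sequence is the stretch shared by both replicates of the highest peak of the Gfi1 window (chr5:107718061-107718320). The Gfi1 upstream sequence lies 13.2 kb before the first start (chr5:107739141-107739320). The Gfi1b upstream sequence is the peak nearest to the first Gfi1b start, listed in replicate 1 alone and chosen after its values were seen (chr2:28622601-28622800). The Gfi1b distal sequence (chr2:28585281-28585440) and the Zeb2 distal sequence (chr2:44960641-44960840) lie 24.1 and 22.9 kb beyond the gene bodies. Each of these 2 was, among the peaks of its window found in both replicates, the highest by mean height away from a neighbour's start.
Gfi1 promoter: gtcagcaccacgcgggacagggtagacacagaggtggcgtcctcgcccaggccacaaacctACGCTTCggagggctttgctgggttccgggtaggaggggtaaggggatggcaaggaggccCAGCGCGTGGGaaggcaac
Gfi1 intron: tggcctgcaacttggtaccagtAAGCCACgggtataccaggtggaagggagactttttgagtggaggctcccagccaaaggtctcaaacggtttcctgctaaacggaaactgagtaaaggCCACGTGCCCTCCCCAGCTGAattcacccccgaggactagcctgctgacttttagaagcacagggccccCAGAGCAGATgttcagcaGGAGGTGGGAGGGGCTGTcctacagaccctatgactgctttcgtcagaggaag
Gfi1 upstream: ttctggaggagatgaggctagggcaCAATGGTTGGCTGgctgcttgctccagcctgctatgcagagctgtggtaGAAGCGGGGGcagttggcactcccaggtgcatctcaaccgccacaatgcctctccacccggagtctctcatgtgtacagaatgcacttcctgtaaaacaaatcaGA
Gfi1b upstream: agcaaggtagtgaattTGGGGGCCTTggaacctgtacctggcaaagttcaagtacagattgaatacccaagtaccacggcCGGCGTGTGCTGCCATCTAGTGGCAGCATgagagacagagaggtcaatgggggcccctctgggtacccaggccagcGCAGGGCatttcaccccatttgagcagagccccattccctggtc
Gfi1b distal: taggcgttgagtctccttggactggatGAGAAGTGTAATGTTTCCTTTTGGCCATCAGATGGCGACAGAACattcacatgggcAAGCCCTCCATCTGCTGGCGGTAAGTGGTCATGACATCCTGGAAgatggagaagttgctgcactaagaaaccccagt
Zeb2 distal: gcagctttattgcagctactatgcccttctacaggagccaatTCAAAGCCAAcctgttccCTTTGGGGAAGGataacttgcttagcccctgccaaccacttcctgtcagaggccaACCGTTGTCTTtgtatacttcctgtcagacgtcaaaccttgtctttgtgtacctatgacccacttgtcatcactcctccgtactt

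The paralogues differed at their promoters in both replicates. Gfi1 and Zeb1 had higher peaks at their starts than their paralogues, of which Gfi1b had none and Zeb2 had low ones. Promoter peaks were those within 500 bp of an annotated transcription start, and at least 1 was present for 63.4% of coding genes in replicate 1 and 57.8% in replicate 2. Heights are given as multiples of the median peak height of the same library, 0.625 in replicate 1 and 0.828 in replicate 2 in the deposited unit.

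The highest Gfi1 promoter peak stood at 5.67 times the median in replicate 1 and 5.19 times in replicate 2, whereas none of the 3 Gfi1b starts had a promoter peak in either replicate. With 0 entered for Gfi1b, the difference was 5.43 ± 0.338 median heights (SD, n = 2). Both Gfi1 values lay above both Gfi1b values. The difference fell to 3.49 in the stricter of the peak sets that each library came with. In that set it was 3.64 in replicate 1 and 3.34 in replicate 2. Whether the promoter peaks or the median height of the set changed was not tested. Among coding genes with a promoter peak, Gfi1 ranked at the 42.6th percentile in replicate 1 and the 51.9th in replicate 2, near the middle.

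The highest Zeb1 promoter peak stood at 9.44 times the median in replicate 1 and 7.13 times in replicate 2, against 1.62 and 0.615 times for Zeb2. The difference was 7.81 and 6.51 median heights, a mean of 7.16 ± 0.922 (SD, n = 2), and the values of the paralogues did not overlap. Zeb1 ranked at the 63.3rd and 64.2nd percentiles of genes with a promoter peak, and Zeb2 at the 18.4th and 6.01st. From high to low the order was Zeb1, Gfi1, Zeb2 and Gfi1b, and the replicate values of neighbours in this order did not overlap. How often other pairs of coding genes are separated in the same way was not counted, so the lack of overlap is not a trait of these genes. In the deposited unit the Zeb1 peak had the same height, 5.90, in both libraries.

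**Figure D1:**
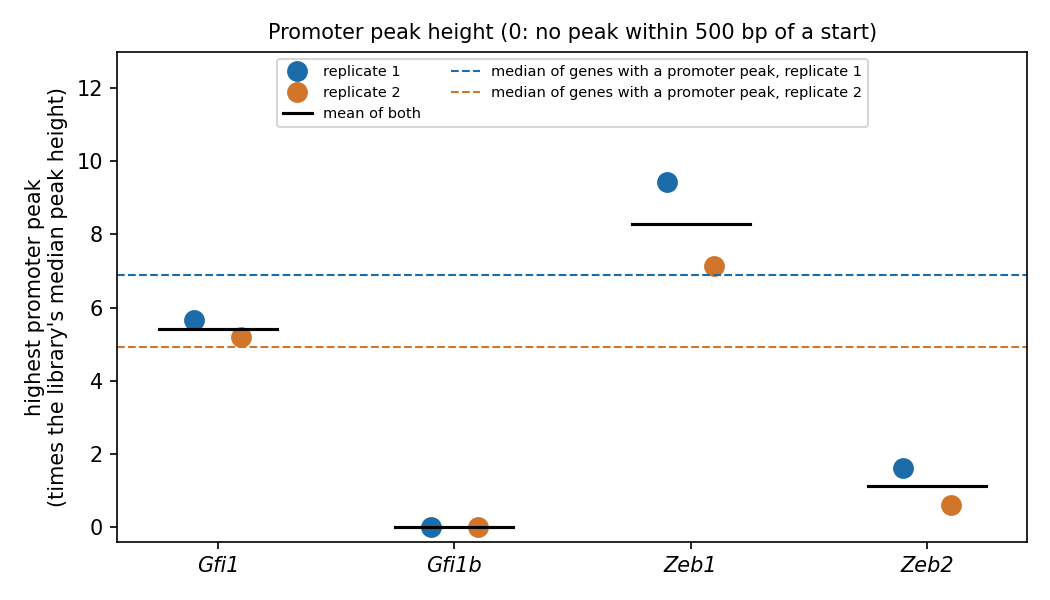
Height of the highest peak within 500 bp of a start of each gene, as a multiple of the median peak height of its library (linear axis), with a point for each replicate, a black bar for their mean and dashed lines at the median of all genes with a promoter peak. Zeb1 lies above the line of its replicate in both replicates, Gfi1 lies near the lines, Zeb2 lies far below them, and Gfi1b has no peak and is drawn at 0.

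The start regions differed in layout as well as in height. Gfi1 (ENSMUSG00000029275.18, chr5:107716657-107726036, minus strand) has 3 annotated starts. The highest promoter peak covered chr5:107725361-107725660 in replicate 1 and chr5:107725421-107725640 in replicate 2, with its midpoint in an intron 0.5 kb past the first start. Its footprints numbered 6 and 5. A second promoter peak over the 2 upstream starts had 5.01 times the median height in replicate 1 and 4.53 times in replicate 2. The start farthest downstream, 107724343, had a peak of 3.11 times the median in replicate 1 and none in replicate 2.

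Zeb1 (ENSMUSG00000024238.15, chr18:5591860-5775467, plus strand) has 11 annotated starts. The first 5 lie close together and shared the high peak at chr18:5591621-5591960 in replicate 1 and chr18:5591621-5591840 in replicate 2, with 6 and 5 footprints. The starts at 5593308 to 5594203 had 2.60 times the median in replicate 1 and 0.846 to 1.42 times in replicate 2. The start at 5603744 had 1.61 and 0.399 times the median, and the one at 5731081 had no peak in either replicate. Accessibility at Zeb1 starts was thus highest at the upstream group in both replicates and lower at each later start.

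Gfi1b (ENSMUSG00000026815.14, chr2:28609450-28621982, minus strand) had a single peak in its body, in an intron, with 1.16 times the median height in replicate 1, and none in replicate 2. The upstream peak printed above lay 0.7 kb before the first start with 2.45 times the median in replicate 1 and was not listed in replicate 2. With the promoter drawn as 1 kb on each side of a start, this peak was counted and the difference between Gfi1 and Gfi1b was 3.21 in replicate 1 and 5.19 in replicate 2. Apart from this peak and the intronic one, the nearest accessible sites belonged to the flanks.

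Zeb2 (ENSMUSG00000026872.17, chr2:44983632-45117395, minus strand) has 29 annotated starts, most of them near its upstream end. The highest promoter peak lay at chr2:45109881-45110440 in replicate 1 and chr2:45110021-45110268 in replicate 2. It came within 500 bp of the starts at 45110076 to 45110754 but covered only some of them. Its midpoint was in the 5' untranslated region in replicate 1 and in a coding exon in replicate 2. The starts at 45111076 to 45111174 had 1.10 and 0.559 times the median, and the most upstream start, 45117395, had 0.898 and 0.580 times. The 12 starts at 45112890 to 45113508 had 1.23 times in replicate 1 and no peak in replicate 2. Of the 3 starts within the later gene body, 1 had a peak of 0.361 times in replicate 1 and 2 had none in either replicate. Many low peaks were therefore listed over the Zeb2 starts and none reached 2 median heights.

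The false discovery rate (FDR) that the authors deposited for the rate of cutting also separated the paralogues in both replicates. Within 500 bp of the Gfi1 starts, 100% of bases in replicate 1 and 49.5% in replicate 2 had an FDR under 0.05, against 0% and 0% at the Gfi1b starts, where no base was listed. At the Zeb1 starts the shares were 65.9% and 40.1%, against 33.6% and 14.5% at the Zeb2 starts. The lowest FDR was 1.3e-72 and 5.7e-61 at Zeb1, 4.1e-27 and 1.3e-11 at Gfi1, and 2.6e-11 and 0.00075 at Zeb2. These rates come from the same libraries as the peaks and are no independent check.

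Base composition of the first start (500 bp on each side) followed promoter height in its G+C content but not in its CpG ratio. The G+C content was 60.1% at Gfi1 and 69.5% at Zeb1, against 50.8% at Gfi1b and 54.0% at Zeb2, with a median of 54.7% over coding genes. The ratio of observed to expected CpG was 0.621 at Gfi1 and 0.947 at Zeb1, against 0.320 at Gfi1b and 0.707 at Zeb2, with a median of 0.552. By this ratio Zeb2 stood above Gfi1. For Zeb2 the first start was not the site of its highest promoter peak, which lay 7.2 kb downstream. The first Zeb2 start had 0.898 and 0.580 times the median height in replicates 1 and 2. With these values the order of the genes by height was the same. The part of base composition in the promoter difference was not tested.

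The number of accessible sites in the whole windows did not follow the promoters. In replicate 1, Gfi1 had 51 peaks in 209 kb, or 24.4 per 100 kb, against 34 peaks in 213 kb for Gfi1b, or 16.0 per 100 kb. In replicate 2 these were 18 peaks, or 8.60 per 100 kb, for Gfi1 and 22 peaks, or 10.4 per 100 kb, for Gfi1b. The difference was 8.36 in replicate 1 and -1.75 in replicate 2, so that its sign changed between replicates and its mean of 3.30 ± 7.15 (SD, n = 2) was smaller than the spread.

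Zeb1 had 22 peaks in 384 kb, or 5.74 per 100 kb, in replicate 1 and 8 peaks, or 2.09 per 100 kb, in replicate 2. Zeb2 had 30 peaks in 334 kb, or 8.99 per 100 kb, in replicate 1 and 16 peaks, or 4.79 per 100 kb, in replicate 2. Zeb1 was thus the lower of the pair in peak density, although the higher at the promoter, by -3.25 in replicate 1 and -2.71 in replicate 2 (mean -2.98 ± 0.385, SD, n = 2). The gap shrank to -1.85 with equal peak numbers from both libraries and to -1.72 in the stricter peak set.

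Set among all coding genes, whose median was 8.52 peaks per 100 kb in replicate 1 and 4.75 in replicate 2, the Gfi1 window ranked at the 95.5th and 74.5th percentiles and the Gfi1b window at the 81.6th and 81.8th. Zeb1 ranked at the 35.2nd and 28.6th percentiles, and Zeb2, near the middle, at the 52.7th and 50.4th. The densities themselves, taken over both replicates, overlapped between Gfi1 and Gfi1b and between Zeb1 and Zeb2.

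Where the peaks lay differed between Gfi1 and Gfi1b. The Gfi1 body held 10 peaks in replicate 1 and 5 in replicate 2, whereas the Gfi1b body, of similar length, held 1 and 0. A peak in the body was found for 67.4% of coding genes in replicate 1 and 57.5% in replicate 2. Counted over the body alone, the difference was 98.6 and 53.3 peaks per 100 kb (mean 76.0). By contrast, 10 Gfi1b window peaks in each replicate lay within 1 kb of a start of another coding gene, against 0 in the Gfi1 window. The Gfi1 window also reaches into Evi5 and Rpap2. Away from starts, bodies of neighbours held 23 of its 51 peaks in replicate 1 and 6 of 18 in replicate 2. In the Gfi1b window they held 11 of 34 and 5 of 22.

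The Gfi1b window contains starts of 6 other coding genes (Ak8, Cel, Gtf3c5, Ralgds, Spaca9 and Tsc1), and without peaks at such starts it had 11.3 and 5.65 peaks per 100 kb. Gfi1 stayed at 24.4 and 8.60, since none of its peaks lay at such a start, and was then the higher in both replicates, by 13.1 and 2.95. Its replicate 2 count includes peaks of only 0.0699 to 0.168 times the median that were not seen in replicate 1. The lead without them was not computed. The Zeb1 body held 14 and 5 peaks and the Zeb2 body 15 and 8, or 7.62 and 2.72 against 11.2 and 5.98 per 100 kb. The Zeb1 window has no other coding gene, and 3 and 2 of the Zeb2 window peaks lay at the start of Gtdc1.

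**Figure D2:**
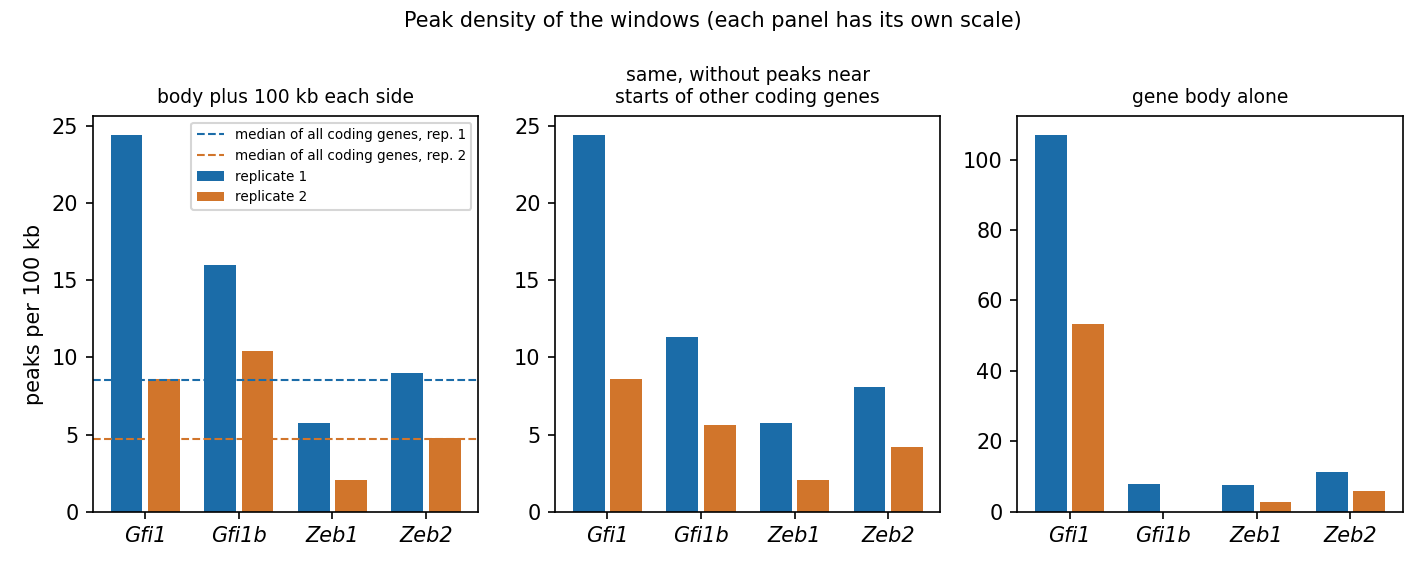
Peaks per 100 kb (linear axes that start at 0, with a separate scale for each panel) in the body plus 100 kb on each side, in the same windows without peaks within 1 kb of starts of other coding genes, and in the gene body alone, with a bar for each replicate and dashed lines at the medians of all coding genes. Gfi1 exceeds Gfi1b in both replicates in the middle and right panels but in replicate 1 alone in the left panel, and Zeb1 lies below Zeb2 in each panel.

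In replicate 1, the peaks of each window that were found in both replicates had the higher median height. Overlap was counted from 1 bp, and over the whole libraries 43.2% of replicate 1 peaks and 83.2% of replicate 2 peaks were overlapped by a peak of the other replicate. For Gfi1, 12 of 51 replicate 1 peaks (23.5%) and 12 of 18 replicate 2 peaks (66.7%) were overlapped. For Zeb1, this held for 8 of 22 (36.4%) and 8 of 8 (100%). Both Gfi1 shares lay below those of the whole libraries.

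For Gfi1b, 21 of 34 replicate 1 peaks (61.8%) and 20 of 22 replicate 2 peaks (90.9%) were overlapped, and for Zeb2, 12 of 30 (40.0%) and 14 of 16 (87.5%). In replicate 1 the Gfi1 peaks found in both replicates had a median height of 3.55 times the library median, and the 39 seen in replicate 1 alone had 1.36 times. In replicate 2 the Gfi1 peaks found in both had a median of 1.76 times and the 6 seen there alone 0.133 times. At Gfi1b the order was the other way in replicate 2, with 1.13 times for peaks found in both and 2.61 times for the 2 seen there alone. Of the peaks seen in replicate 1 alone, the highest stood at 4.26 times the median, below the promoter, intronic and upstream peaks of Gfi1. At Zeb1 the medians in replicate 1 were 2.15 times for peaks found in both and 0.616 times for the others, against 1.76 and 0.750 times at Gfi1b and 1.39 and 0.560 times at Zeb2.

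The distal landscape of Gfi1 was led by a peak inside the gene. The highest peak of the Gfi1 window lay in an intron 7.9 kb past the first start, at chr5:107717881-107718360 in replicate 1 and chr5:107718061-107718320 in replicate 2. It had 10.4 times the median height in replicate 1 and 8.42 times in replicate 2, above the Gfi1 promoter in both. The upstream peak at chr5:107739121-107739360 in replicate 1 had 7.15 times and in replicate 2 5.34 times. A further peak, at chr5:107687921-107688380 in replicate 1, 28.5 kb beyond the gene body, had 5.40 and 3.34 times the median.

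The Gfi1b window was led by starts of neighbours. Its highest peak, at the start of Tsc1, a subunit of the tuberous sclerosis complex that restrains mTOR signalling, had 12.5 times the median in replicate 1 and 9.80 times in replicate 2. The next, at the start of Gtf3c5, a subunit of a general transcription factor of RNA polymerase III, had 9.20 and 3.88 times. The distal peak printed above had 6.14 and 2.56 times. None of these 3 lay in the Gfi1b body.

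Beyond its promoter, the Zeb1 window had a peak 44.4 kb past the gene body at chr18:5819801-5820020 in replicate 1, with 4.33 times the median in replicate 1 and 2.55 times in replicate 2. A peak in an intron at chr18:5607961-5608140 had 2.19 and 0.930 times, and one at chr18:5831841-5832020 in replicate 1 had 1.49 and 0.622 times. The Zeb1 promoter peak exceeded each of these in both replicates.

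In the Zeb2 window the peak at the start of Gtdc1, a glycosyltransferase-like gene, had 5.24 times the median in replicate 1 and 5.57 times in replicate 2. The distal peak printed above had 3.88 and 1.73 times, and a peak 4.1 kb past the gene body, at chr2:44979261-44979900 in replicate 1, had 2.17 and 0.804 times. In both replicates each of these 3 was higher than the highest Zeb2 promoter peak. The Zeb2 and Zeb1 windows were thus unlike in that the gene's own promoter was the highest site at Zeb1 and not at Zeb2.

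**Figure D3:**
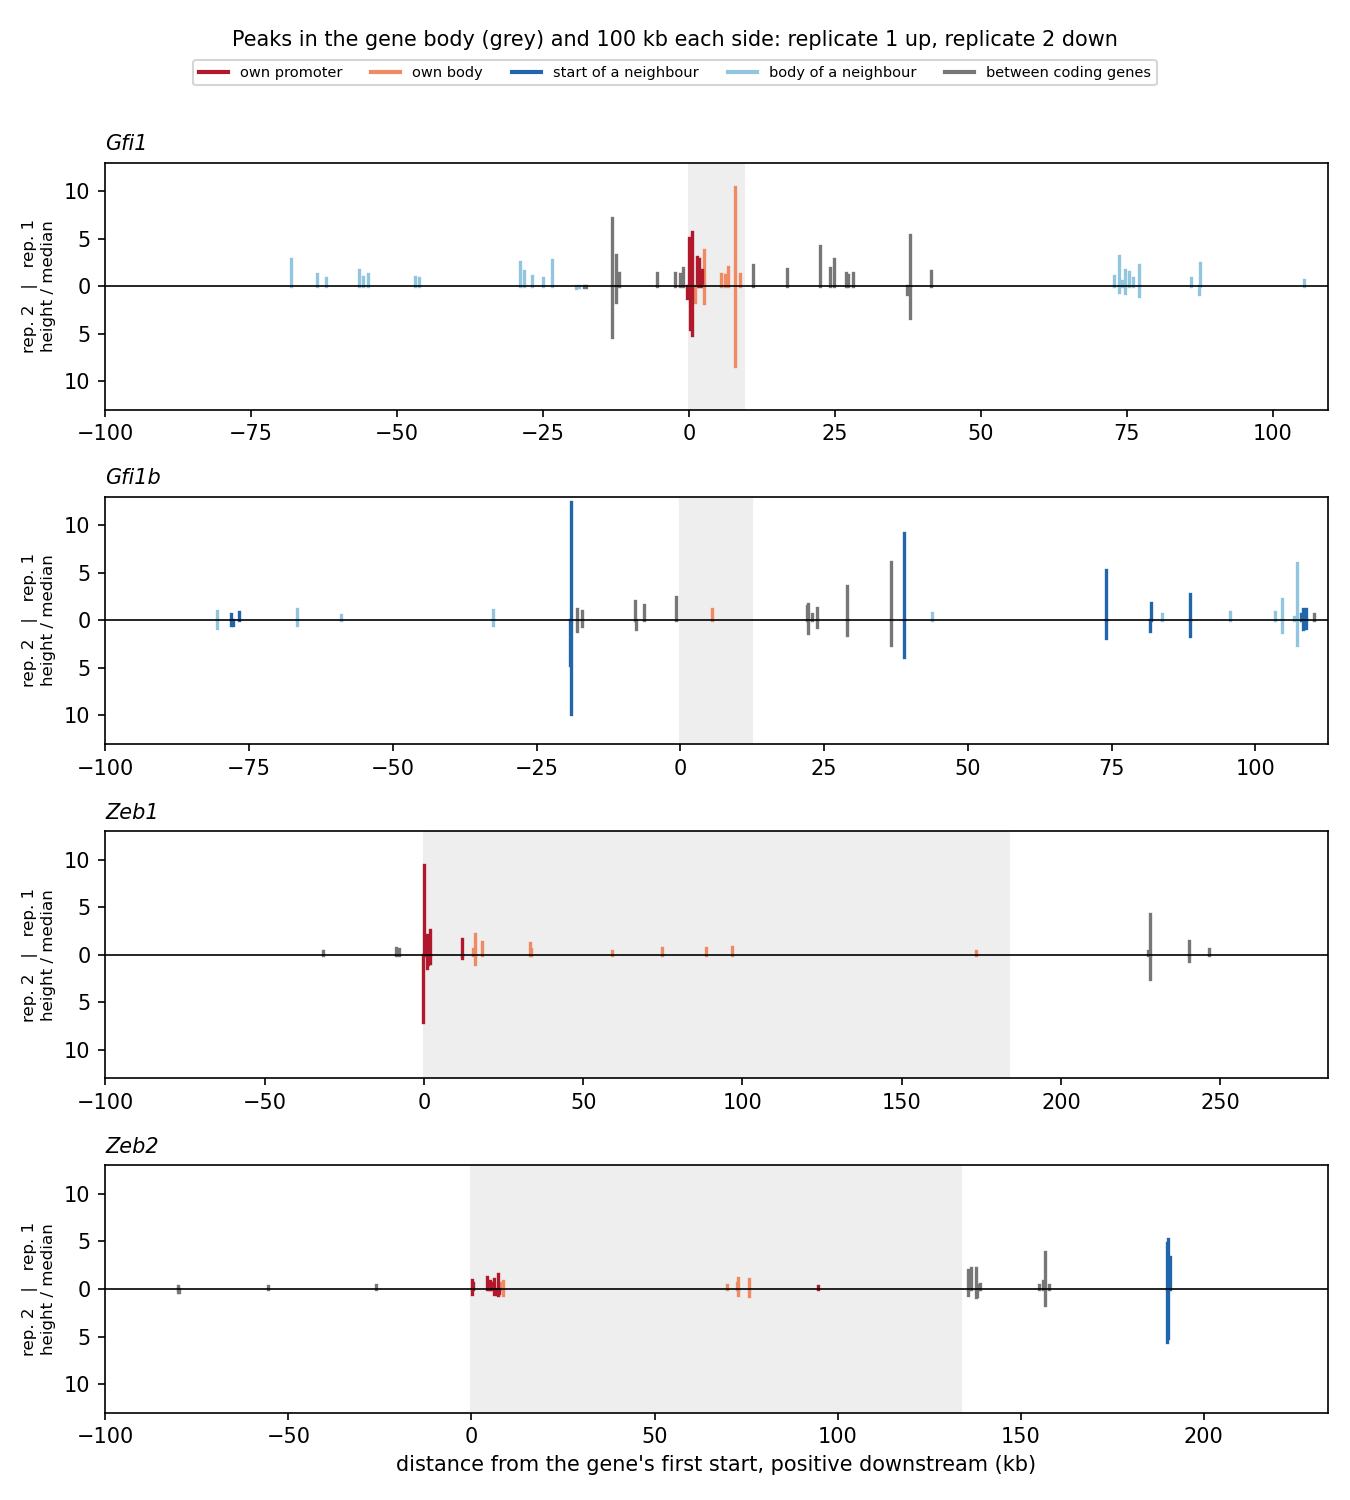
Each peak of the 4 windows by distance from the first annotated start of the gene (kb, positive downstream) and height as a multiple of the median of its library, upward for replicate 1 and downward for replicate 2, with the gene body in grey and colours for the place of the peak. The tall bars at Gfi1 stand inside or near the gene and that at Zeb1 at its start, whereas the tallest bars in the Gfi1b and Zeb2 windows stand at starts of neighbours.

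Footprint numbers ran with peak numbers. The Gfi1 window held 176 footprints in replicate 1 and 52 in replicate 2, against 109 and 54 in the Gfi1b window. Per 100 kb this was 84.1 and 24.8 at Gfi1 against 51.3 and 25.4 at Gfi1b, a difference of 32.8 and -0.573 (mean 16.1 ± 23.6, SD, n = 2) whose sign differed between replicates. The Zeb1 window held 64 and 33 footprints against 89 and 49 in the Zeb2 window, a difference per 100 kb of -9.98 and -6.08 (mean -8.03 ± 2.76, SD, n = 2). It shrank to -2.64 without footprints near starts of neighbours. As with peaks, the bodies separated Gfi1 from Gfi1b, with 47 and 22 footprints in the Gfi1 body against 2 and 0 in the Gfi1b body. The Zeb1 body held 44 and 18 and the Zeb2 body 37 and 19.

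Most footprints lay in peaks of the same library, which held for 82.8% of all footprints in replicate 1 and 84.2% in replicate 2. In the windows these shares were 91.5% and 86.5% at Gfi1 and 82.8% and 75.8% at Zeb1, against 79.8% and 81.5% at Gfi1b and 89.9% and 81.6% at Zeb2. The window shares lay on both sides of the share of all footprints.

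Footprints were searched, with 5 bp added on each side and on both strands, for short motifs of the families themselves and of factors known in T cells and blood cells. Matches are descriptions of letters and not of binding. AATC, the GFI core, was found in 8.53% of all footprints in replicate 1 and 7.14% in replicate 2. It was found in 27 of 240 footprints (11.2%) of the Gfi1 and Zeb1 windows and 7 of 198 (3.54%) of the Gfi1b and Zeb2 windows in replicate 1. In replicate 2 the shares were 3 of 85 (3.53%) for Gfi1 and Zeb1 and 3 of 103 (2.91%) for Gfi1b and Zeb2. A gap of the size in replicate 1 was therefore not seen in replicate 2.

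The longer GFI form AATCAC, whose matches are also AATC matches, was found in 0.497% and 0.409% of all footprints. The Gfi1 window had 2 such footprints in each replicate, at different places, and the other 3 windows had 0 in both. One of them, in replicate 2 alone, lay 0.5 kb before the first Gfi1 start at chr5:107726510-107726520. GFI1 is known to repress its own gene, and the footprint is shown for that reason with 5 bp on each side, footprint in capitals. The AATC core lies in the added 5 bp, outside the called footprint, and only the final AC of the match lies inside it.
Gfi1 AATCAC footprint: gaatcACCGGACCCCGgtgcc

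CACCTG, an E-box that ZEB proteins bind, was found in 2.23% of all footprints in replicate 1 and 2.62% in replicate 2. It was found in 3 of 240 footprints (1.25%) of the Gfi1 and Zeb1 windows and 3 of 198 (1.52%) of the Gfi1b and Zeb2 windows in replicate 1. In replicate 2 these were 4 of 85 (4.71%) and 3 of 103 (2.91%). One CACCTG footprint of the Gfi1 window was called in both replicates, at chr5:107717887-107717906 in replicate 1 and chr5:107717888-107717901 in replicate 2, within the last coding exon. It lay at the edge of the intronic peak in replicate 1 and outside that peak in replicate 2. It is shown with the replicate 1 footprint in capitals.
Gfi1 CACCTG footprint: gctttGCCGCACACCTGGCATTTGTggggc

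At the Zeb1 promoter, a CACCTG match was counted for the replicate 2 footprint at chr18:5591777-5591798, with its 5 bp extension. The replicate 1 footprint over this place, chr18:5591767-5591796, was without a match under the 5 bp extension. Most letters of the match lay in the added 5 bp, outside the called footprint of replicate 2, and all lay outside that of replicate 1. The match thus turned on where the footprint ended and does not show that the E-box was protected.

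CAGCTG, an E-box of the E proteins that drive early T-cell development, was found in 1.58% and 1.85% of all footprints. It was found in 8 of 240 footprints (3.33%) of the Gfi1 and Zeb1 windows and 5 of 198 (2.53%) of the Gfi1b and Zeb2 windows in replicate 1, and in 2 of 85 (2.35%) and 0 of 103 in replicate 2. In the Gfi1 intron sequence above, CAGCTG at chr5:107718195-107718200 lay inside a footprint of both replicates, chr5:107718181-107718201 in replicate 1 and chr5:107718181-107718200 in replicate 2. The highest site of the Gfi1 window thus held an E protein E-box under footprints that nearly coincided. The same footprints also held the letters CACGTG, which differ from this E-box and were not among the motifs searched. Which of these letters were bound was not tested.

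The other motifs were found in few footprints of the windows. AGATAA, a site of GATA factors, was found in 0.503% and 0.279% of all footprints, in 2 footprints of each pair of windows in replicate 1 and in 0 in replicate 2. TGTGGT, of RUNX factors, was found in 2.05% and 1.72% of all footprints. It was in 2 of the Gfi1 and Zeb1 footprints against 3 of the Gfi1b and Zeb2 footprints in replicate 1, and in 0 against 2 in replicate 2.

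GGAAGT, of ETS factors, was found in 2.30% and 2.18% of all footprints, and in 4 against 4 of the window footprints in replicate 1 and 1 against 3 in replicate 2. CTTTGA, of TCF and LEF factors, was found in 1.51% and 1.10% of all footprints, and in 3 against 5 and 0 against 2. AACTG, of MYB, was found in 3.96% and 3.23% of all footprints, and in 10 against 9 and 3 against 2. Within the Zeb2 distal sequence a CTTTGA match at chr2:44960683-44960688 lay in footprints of both replicates, and within the Gfi1 upstream sequence an AACTG match at chr5:107739225-107739229 lay within 5 bp of footprints of both.

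The consensus of CTCF, the insulator and loop anchor protein, was added after the sequences had been seen. It was found in 1.63% of all footprints in replicate 1 and 1.87% in replicate 2. The windows of Gfi1, Zeb1 and Zeb2 held 0 such footprints in both replicates, and the Gfi1b window held 4 of 109 (3.67%) and 2 of 54 (3.70%). One is the long footprint in the Gfi1b upstream sequence, chr2:28622681-28622709, in replicate 1. Both found in replicate 2 were also found in replicate 1, one at a start of Ralgds and one 104.6 kb past the first Gfi1b start. The last of these also held one of the CACCTG matches counted above, since these letters overlap there.

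The genes whose pattern was most like each of the 4 were sought over 4 values, peak density and promoter height in each replicate, as the smallest distance on the log2(value + 1) scale. For Gfi1 these were Slc35d1, Vipr1 and Aqp11, at distances of 0.085, 0.202 and 0.217. For Gfi1b they were Adipoq, Gpr153 and Rnase10 (0.009, 0.013 and 0.022), all without a promoter peak. For Zeb1 they were Tcaim, Atg10 and Edrf1 (0.101, 0.122 and 0.148), and for Zeb2 Shisa2, Prkag3 and Kcnk15 (0.146, 0.162 and 0.180). The likeness rests on 2 samples.

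All 8 cofactor genes of GFI1 and GFI1B had a promoter peak in both replicates, against 63.4% and 57.8% of all coding genes, with list medians of 6.95 and 4.87 times the library median. The highest were Rcor1, which encodes CoREST, with 20.7 and 21.3 times, and Hdac1, a histone deacetylase, with 11.3 and 15.2 times. All 6 cofactor genes of ZEB1 and ZEB2 had promoter peaks, with medians of 7.78 and 5.41 times. The highest were Smarca4, an ATPase of the SWI/SNF remodellers, with 22.3 and 21.7 times, and Chd4, an ATPase of the NuRD complex, with 10.8 and 8.50 times. The lowest of the 2 lists were Ajuba, with 1.55 and 0.853 times, and the CtBP gene Ctbp2, with 0.667 and 0.483 times. The median over all coding genes, those without a peak entered as 0, was 1.96 and 1.06 times. Over genes with a promoter peak alone it was 6.88 and 4.92 times, near the medians of both cofactor lists.

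Of the 7 other genes of SNAG zinc finger proteins, 7 had a promoter peak in replicate 1 and 3 in replicate 2, against 63.4% and 57.8% of all coding genes. The highest were Snai1, a Snail family repressor, with 6.58 and 5.83 times the median, and Snai3, a Snail relative, with 3.36 and 3.02 times. The list medians were 1.85 and 0 times, near or below those of all genes. The 4 without a peak in replicate 2 had 0.352 to 1.85 times the median in replicate 1.

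Of 8 genes described as repressed by GFI1 or GFI1B, 7 had a promoter peak in replicate 1 and 6 in replicate 2, against 63.4% and 57.8% of all coding genes. The list medians were 1.66 and 0.773 times. Id2, an inhibitor of E proteins, had 15.1 and 11.0 times, and Id1, its relative, 4.61 and 2.53 times. Hoxa9, a homeobox gene of blood progenitors, had no promoter peak in either replicate. Of 8 genes described as repressed by ZEB1 or ZEB2, 8 had a promoter peak in replicate 1 and 7 in replicate 2, against the same shares of all coding genes, with medians of 4.03 and 2.10 times. Itga4, an integrin chain of lymphocytes, had 15.3 and 12.5 times and Tjp3, a tight junction protein gene, 12.0 and 7.87 times. A promoter peak shows an accessible start, and expression was not measured.

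**Figure D4:**
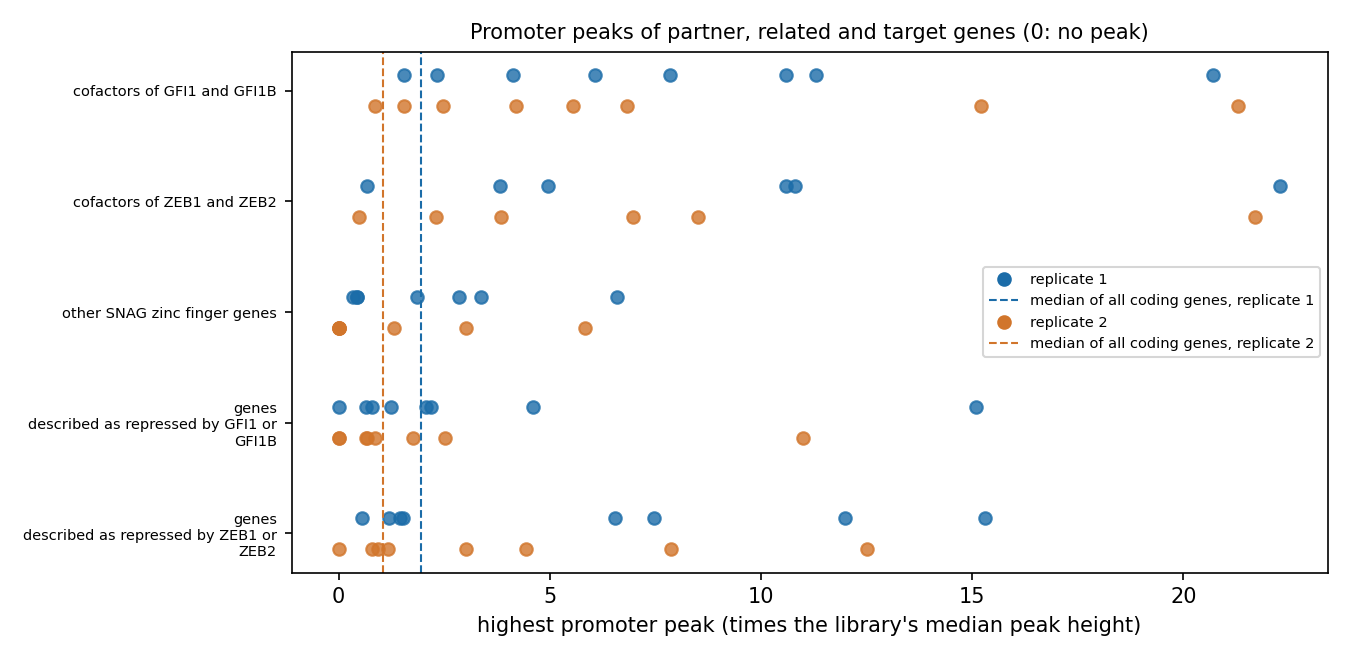
Highest promoter peak of each gene in the 5 lists of cofactors, relatives and described target genes, as a multiple of the median peak height of the library (linear axis), with a point for each gene and replicate, genes without a promoter peak at 0 and dashed lines at the medians of all coding genes. The cofactor lists reach the highest values, at Rcor1 and Smarca4, and 4 of the 7 SNAG relatives stand at 0 in replicate 2.

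The labelled tissue was checked against marker genes. All 8 thymocyte markers had a promoter peak in both replicates, with medians of 8.96 and 5.97 times. For the other lists the counts stand beside the 63.4% and 57.8% of all coding genes with a promoter peak. Of the 8 erythroid and megakaryocyte markers, 4 had a promoter peak in both replicates (medians 0.833 and 0.399 times), and Klf1, Hbb-bt, Pf4 and Gp9 had none. Of the 8 myeloid and dendritic markers, 3 had one, and Csf1r, Adgre1, Siglech, Itgax and Cd14 had none. Of the 4 mesenchyme and endothelium markers 3 had one, with none at Cdh5. How far other cells of the thymus contributed to the low Zeb2 peaks was not tested.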

How the data were processed

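DNase-seq libraries of thymus from 2 female mice were analysed as deposited, with peaks, footprints and FDR cut rates on mm10, per the README of each sample. Peaks were listed per library by the authors and not pooled. The deposited signal value of a peak is its height, and the authors' FDR values, which are adjusted p-values (q-values), all lay under 0.05. The footprint list held the constant 0.01. No source used here gave the aligner, callers, scaling or read numbers, so depth is unknown and no counting interval is given. Whether footprints were corrected for the sequence preference of DNase I was not given, and reads of the CAST/EiJ set may have been placed less often on the C57BL/6J reference, which was not measured.

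Of the pair of peak lists in each library, the larger was used (132737 and 69798 peaks). The smaller (93790 and 46467) served as the stricter set. Genes and starts were taken from GENCODE M21, and a script compared chromosome names and lengths of GRCm38.p6 with the files. Coordinates are 1-based. Heights were divided by the median of the library. Counting code was tested on simulated intervals. Differences are given per replicate with mean and SD. Python 3.11.15 and numpy 2.4.6 were used.

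The members, lists and motifs were chosen with earlier results of these data known. Named list genes were the 2 highest by mean promoter height in each list and those without a promoter peak in both replicates. For the cofactor lists the lowest gene was named as well. Peaks described singly were the highest promoter peak and the 3 highest others found in both replicates, by mean height. Other peaks and the CTCF consensus were picked after their values were seen. The result of 1 marker list is not reported here.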

Additional observations from a re-analysis of the deposited data

How the results depend on the processing

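The difference in promoter height kept its sign in all alternatives tried. For Gfi1 minus Gfi1b it was 3.49 in the stricter peak set, 4.20 with promoters of 1 kb and 3.92 in heights as deposited. For Zeb1 minus Zeb2 it was 4.81 in the stricter set and 5.14 in heights as deposited. None of the Zeb2 promoter peaks of replicate 2 overlapped a peak of the stricter set. Peak density for Gfi1 minus Gfi1b was not settled by these libraries. It was 0.149 in the stricter set, 10.4 with a flank of 50 kb (17.8 and 3.02 in replicates 1 and 2), 76.0 in the gene body alone, and ran between -1.75 and 8.36 when either replicate was left out, reversed without replicate 1. The footprint density was 360 in the body alone and ran between -0.573 and 32.8. For Zeb1 minus Zeb2 the peak density stayed negative, at -1.72 in the stricter set, -1.85 with equal peak numbers, -3.42 in the body alone and -2.23 without peaks near starts of neighbours. Its footprint density was -4.05 in the body alone and -2.64 without those near such starts. The cause of these shifts was not tested. Of 38 alternative values, 23 moved by less than the spread between replicates, 13 moved by more and kept their sign, and 2 reversed. Leaving out 1 of 2 replicates always moves a mean by less than their SD. Alternatives of that kind could therefore only stay within the spread or reverse, so that the tally does not measure robustness.

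No paired analysis was possible because the study has 1 group, so that no replicate numbers are shared between groups. The paralogues were compared within each library. With 2 replicates the SD is itself imprecise. The number of reads behind each library is unknown, so that a low peak listed in one replicate and not in the other cannot be told from a site missed at the depth of the other.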
